A study of Mus musculus with 39 samples.

Results

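The contrast between cells sorted as granulocytic (G) and as monocytic (M) myeloid-derived suppressor cells was compared between the intestine and the spleen of APCmin/+ mice. The quantity described is the interaction, that is the G minus M difference in intestine minus the G minus M difference in spleen. It was computed on log2(TPM + 1), where TPM is a transcript's length-corrected share of its library, so folds of genes with low values are understated. The members are the 12 libraries labelled G or M from these tissues, out of 39 libraries in the series, and 16029 genes that reached a TPM of 1 in 3 or more of them were tested. A positive interaction means that G relative to M stood higher in intestine than in spleen, and a negative one that it stood lower.

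RNA of the whole series comes from 13 groups of 3 libraries of mouse bone marrow, spleen and intestine. They come from APCmin/+ mice, from BALB/c mice labelled immune-deficiency (spleen) and from C57BL/6 mice labelled newborn, P7 (bone marrow). The 4 groups used here, with 3 libraries each, are G sorts of intestine, M sorts of intestine, G sorts of spleen and M sorts of spleen, all from mice labelled APCmin/+ mutant. All 4 groups therefore carry the mutant Apc allele, which leads to intestinal tumours, and none is wild type. The sources used here give neither age nor sort antigens nor the part of the intestine taken, and whether numbered libraries come from separate animals is not labelled. The p-values therefore measure only the spread between these samples, which may be technical.

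Myeloid-derived suppressor cells are immature neutrophil-like and monocyte-like cells that build up in tumour-bearing animals and restrain T cells. Granulocyte precursors divide and fill primary granules with enzymes such as myeloperoxidase, then stop dividing and gain chemokine receptors and secondary granules as they mature, while classical monocytes carry Ly6C and the chemokine receptor Ccr2. The intestinal lining holds, beside its epithelium, many plasma cells that secrete IgA joined by the J chain.

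The labels were first set against defining markers. Cxcr2, the chemokine receptor of mature neutrophils, had 0.59, 1.91 and 1.75 TPM in the G libraries of intestine and 0.40, 0.06 and 0.25 TPM in the M libraries of intestine. In spleen it had 276, 567 and 851 TPM in the G libraries and 55.5, 391 and 339 TPM in the M libraries. Defining neutrophil RNA was thus near 0 in both intestinal sorts and high in both splenic sorts, the M sorts included. Ly6g, the surface antigen of neutrophils, was at 0.99 to 3.75 TPM in all 6 intestinal libraries and did not separate the splenic sorts, with 63.6, 481 and 186 TPM in the G libraries and 74.6, 411 and 221 TPM in the M libraries. Ccr2 had 0.36, 1.84 and 0.63 TPM in the G libraries of intestine and 8.71, 11.3 and 9.01 TPM in the M libraries of intestine. It had 8.13, 13.4 and 11.9 TPM in the G libraries of spleen and 89.9, 30.2 and 296 TPM in the M libraries of spleen, so the monocyte receptor stood lower in each G library than in its M partner in both tissues.

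Summed over 20 markers of intestinal epithelium, the level was 21867 ± 2005 TPM in G and 21455 ± 3010 TPM in M libraries of intestine, against 66.3 ± 24.7 TPM in G and 101 ± 61.8 TPM in M libraries of spleen (SD, n = 3 each). The 20 mature granulocyte markers summed to 172 to 754 TPM in the G and 168 to 215 TPM in the M libraries of intestine, against 23222 to 111008 TPM in the G and 25916 to 93310 TPM in the M libraries of spleen. The 12 plasma cell markers summed to 8421 ± 3260 TPM in G and 117381 ± 19218 TPM in M libraries of intestine, and unsorted intestinal cells of these mice lay between the sorts at 50481 ± 28662 TPM. In spleen the plasma cell sums were 30718 ± 11378 TPM in G and 27835 ± 13922 TPM in M libraries. Ptprc, the pan-leukocyte antigen CD45, averaged 24.9 ± 8.65 TPM in G and 56.4 ± 20.5 TPM in M libraries of intestine, against 930 ± 206 TPM in G and 763 ± 166 TPM in M libraries of spleen. Epithelial and plasma cell markers thus outweighed granulocyte markers in both intestinal sorts, and the groups are called below by their labels only. Ptprc itself had an interaction of -1.44 ± 0.21 (adjusted p = 0.00883), so this antigen moved with the lower calls, and its part in them was not tested. In such bulk libraries, fewer cells of a type and less RNA per cell cannot be told apart.

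**Figure D1:**
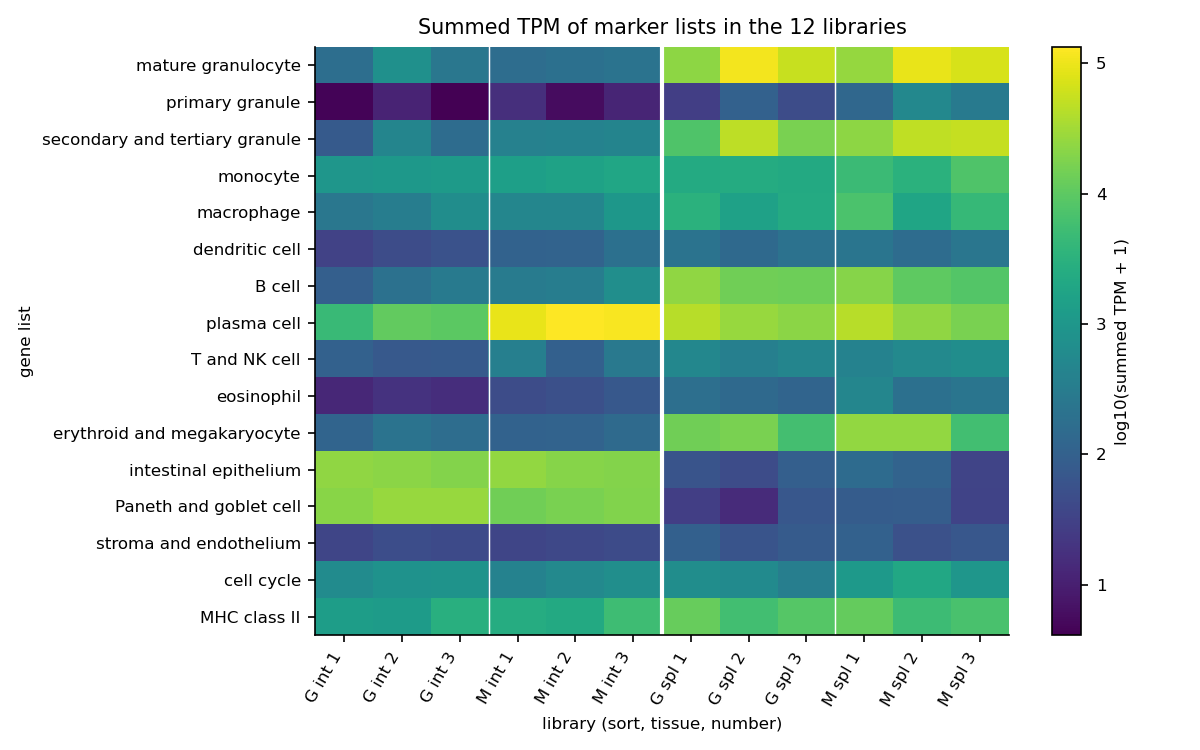
Summed TPM of 16 marker lists (rows) in the 12 libraries (columns), coloured as log10(summed TPM + 1), with intestinal libraries left and splenic libraries right of the thick white line. Epithelial and Paneth and goblet sums are high in all intestinal libraries, the granulocyte sums in all splenic ones, and the plasma cell sum is highest in the 3 M libraries of intestine.

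Libraries had 21656 to 24445 genes above 0. Within groups, log2(TPM + 1) correlated at a Pearson r of 0.958 to 0.98, and no libraries were identical. Mitochondrially encoded RNA took 16.1 ± 3.55% of TPM in G and 10.5 ± 3.29% in M libraries of intestine, and 8.58 ± 0.322% in G and 4.40 ± 0.955% in M libraries of spleen. Xist was present in all 12 libraries at 146 to 469 TPM, while the Y-linked Ddx3y reached at most 0.05 TPM and Eif2s3y at most 0.1 TPM. Every library thus had Xist and next to no RNA of these Y-linked genes. The G and M libraries of a tissue were paired by title number. As a check, libraries of the same number and tissue deviated together from their group means. The 3 intestinal and 3 splenic pairs allow no exact permutation p under 0.1 for a single gene, so single genes were read from the limma fit across all genes.

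The G minus M contrast differed widely between the tissues. The interaction was called higher for 1001 genes, 6.24% of those tested, and lower for 774 genes, 4.83%, together 11.1%, at an adjusted p under 0.05 (limma, Benjamini-Hochberg) and a size of at least 1. Most higher calls came from spleen, since 946 of the 1001 had the larger pair difference there, with median differences of 0.36 in intestine and -0.91 in spleen. Most lower calls came from intestine, since 595 of the 774 had the larger difference there, with medians of -1.16 in intestine and 0.39 in spleen. The G minus M difference had opposite signs in the 2 tissues for 967 of the higher and 667 of the lower calls. A call needs the 2 differences to lie at least 1 apart, which itself favours opposite signs. The share of opposite signs over all genes was not computed, so these counts alone mark no reversal. The 3 intestinal pair differences did not overlap the 3 splenic ones for 54.8% of all genes tested, so such a gap alone marks no gene.

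TPM are shares, and the median interaction of all genes was 0.28 rather than 0. After each library was rescaled by its median ratio over 7443 genes, the median was -0.04, and 312 genes (1.95%) were called higher and 1230 (7.67%) lower, 9.62% in all. The higher share of calls was then 20.2%, against 56.4% as deposited, so the split between directions depends on the scaling, while 312 of the 1001 higher calls and 773 of the 774 lower calls were shared. Higher calls numbered 319, 390 and 538 without intestinal pair 1, 2 or 3, and 1381, 962 and 911 without splenic pair 1, 2 or 3. Lower calls numbered 489, 797 and 556 without intestinal pair 1, 2 or 3, and 768, 833 and 680 without splenic pair 1, 2 or 3. These totals, out of 16029 genes, stand beside the list counts given below for the same fits. With no pairing, 207 genes (1.29%) were called higher and 170 (1.06%) lower.

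**Figure D2:**
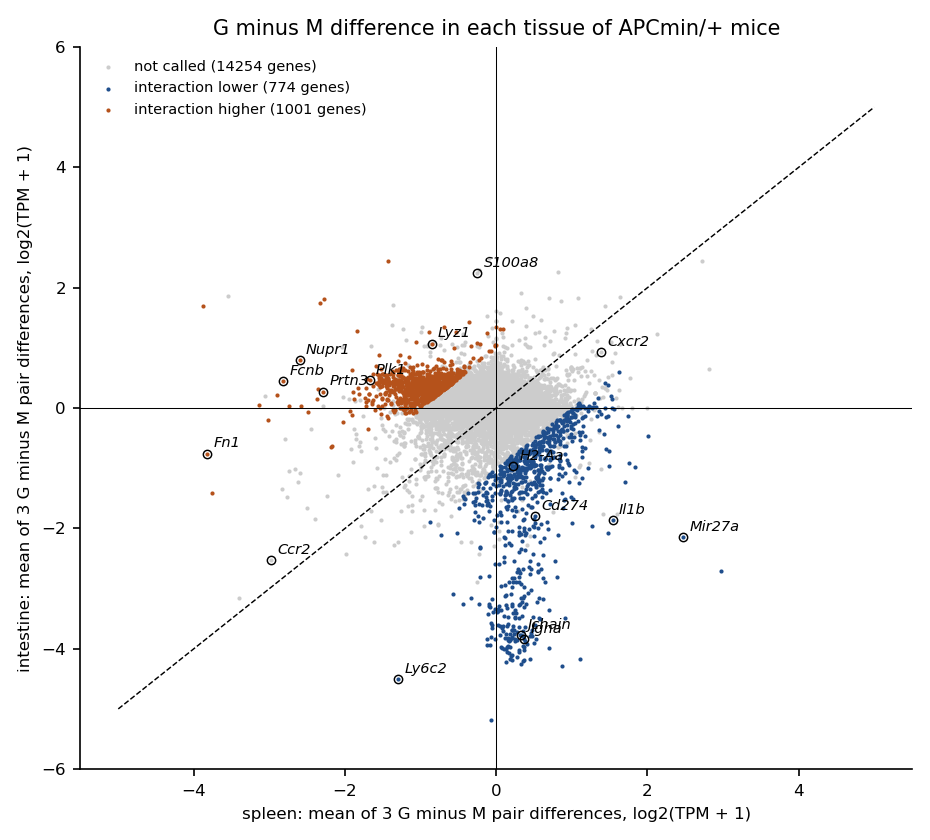
Mean of the 3 G minus M pair differences in intestine (vertical) against spleen (horizontal), in log2(TPM + 1), for all 16029 genes, with the 1001 genes called higher in orange and the 774 called lower in blue; genes on the dashed line have equal differences. The higher calls extend to the left (lower in G than in M sorts of spleen) and lower calls extend downward (lower in G than in M sorts of intestine).

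**Figure D3:**
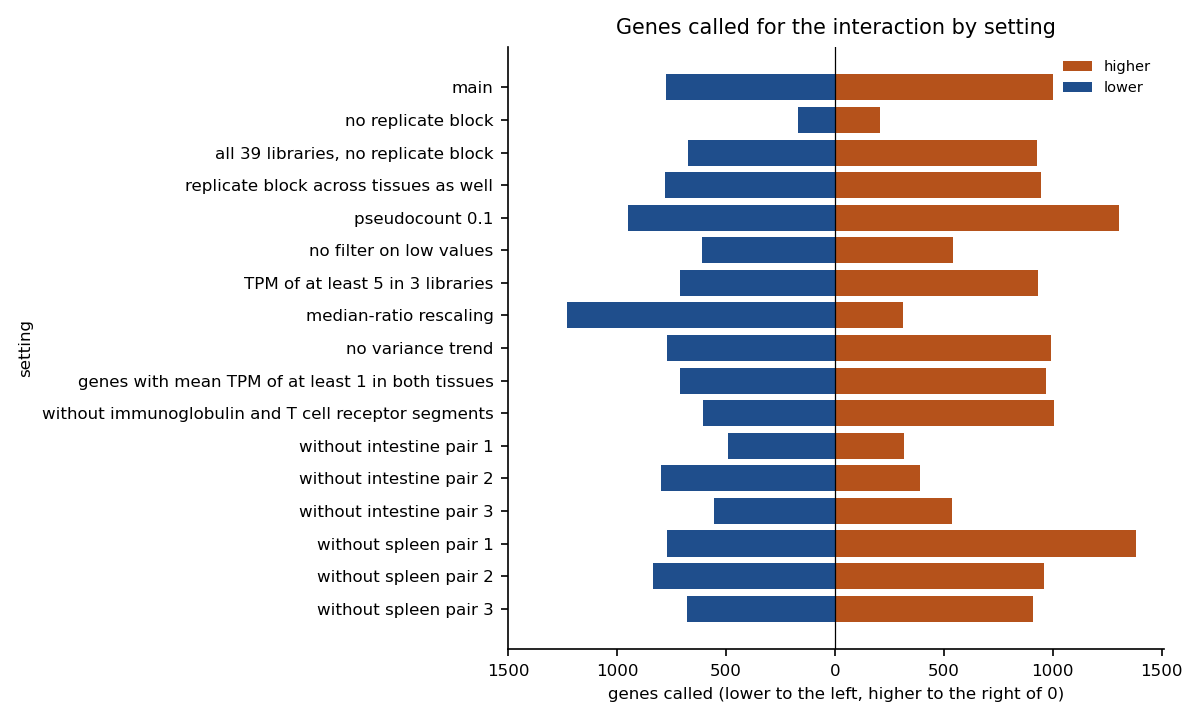
Number of genes called lower (bars to the left of 0) and higher (bars to the right) for the interaction under each setting. Rescaling by the median ratio gives 312 higher and 1230 lower calls, and leaving out any intestinal pair lowers the higher calls.

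Il1b and Cd274 had the contrast turned over between tissues, with G under M in intestine and over M in spleen. Il1b, on chromosome 2 (129364570 to 129371139, minus strand, mm10), encodes the inflammatory cytokine interleukin 1 beta. It had 23.7, 24.0 and 43.0 TPM in the G and 107, 104 and 115 TPM in the M libraries of intestine. Splenic levels were 522, 662 and 1643 TPM in the G and 97.4, 424 and 553 TPM in the M libraries. Each intestinal G library was below its M partner (pair differences -2.13, -2.08 and -1.40) and each splenic one above it (2.41, 0.64 and 1.57), although the splenic groups overlapped. The interaction was -3.41 ± 0.44 (SE, adjusted p = 0.00438), and its adjusted p was 0.0526 with no pairing.

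Cd274, on chromosome 19 (29367455 to 29388095, plus strand), encodes PD-L1, the ligand through which myeloid cells inhibit T cells. Levels were 2.43, 3.67 and 4.76 TPM in the G and 11.7, 13.7 and 19.9 TPM in the M libraries of intestine. In spleen they were 37.9, 23.8 and 46.8 TPM in the G and 31.9, 17.0 and 25.6 TPM in the M libraries. The intestinal groups did not overlap, while the splenic groups did and separated only within pairs (0.24, 0.46 and 0.84). The interaction was -2.32 ± 0.18 (adjusted p = 9.07e-04).

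Nupr1 and Fcnb had the opposite sign, and both owed it mainly to spleen. Nupr1, on chromosome 7 (126623249 to 126630861, minus strand), encodes a small stress-induced nuclear protein. It had 33.2, 42.7 and 52.8 TPM in the G and 18.2, 23.7 and 31.1 TPM in the M libraries of intestine. The spleen gave 2.20, 2.25 and 4.86 TPM in the G and 25.8, 6.54 and 66.2 TPM in the M libraries. G was thus above M in every intestinal pair (0.83, 0.82 and 0.75) and below it in every splenic pair (-3.07, -1.21 and -3.52), with no overlap of groups in either tissue. The interaction was 3.40 ± 0.55 (adjusted p = 0.00892), or 0.0559 with no pairing.

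The Nupr1 promoter is shown because Nupr1 had the largest interaction of 17 stress and unfolded protein response genes, of which 2 were called higher and 1 lower (median -0.08). The window of 250 bases before to 50 after the RefSeq start (GRCm38.p6, chr7:126625421-126625720, minus strand, read 5′ to 3′ along the gene) holds the letters TGATGCAAT on the reverse strand, in capitals as ATTGCATCA. These letters are those of the C/EBP-ATF response element, and either strand of 0.192% of 32851 such windows holds them.
Nupr1: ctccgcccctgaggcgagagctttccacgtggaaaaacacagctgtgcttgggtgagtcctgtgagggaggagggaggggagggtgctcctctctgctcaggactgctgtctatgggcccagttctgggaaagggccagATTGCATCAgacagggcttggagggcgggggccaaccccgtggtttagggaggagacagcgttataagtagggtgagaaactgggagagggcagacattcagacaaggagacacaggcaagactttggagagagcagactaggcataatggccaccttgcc

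Fcnb, on chromosome 2 (28076378 to 28084885, minus strand), encodes ficolin B, a lectin made by immature myeloid cells. It was at 0.06, 1.52 and 0.19 TPM in the G and 0.00, 0.11 and 0.14 TPM in the M libraries of intestine. In spleen it had 7.58, 26.8 and 10.9 TPM in the G and 84.9, 79.5 and 144 TPM in the M libraries. The gene was near 0 in both intestinal sorts, and the splenic groups did not overlap, with G below M. The interaction of 3.26 ± 0.58 (adjusted p = 0.0118) thus comes from the splenic contrast, with intestinal pair differences of 0.08, 1.18 and 0.06. The calls of these 4 genes held on rescaling and without any single pair.

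**Figure D4:**
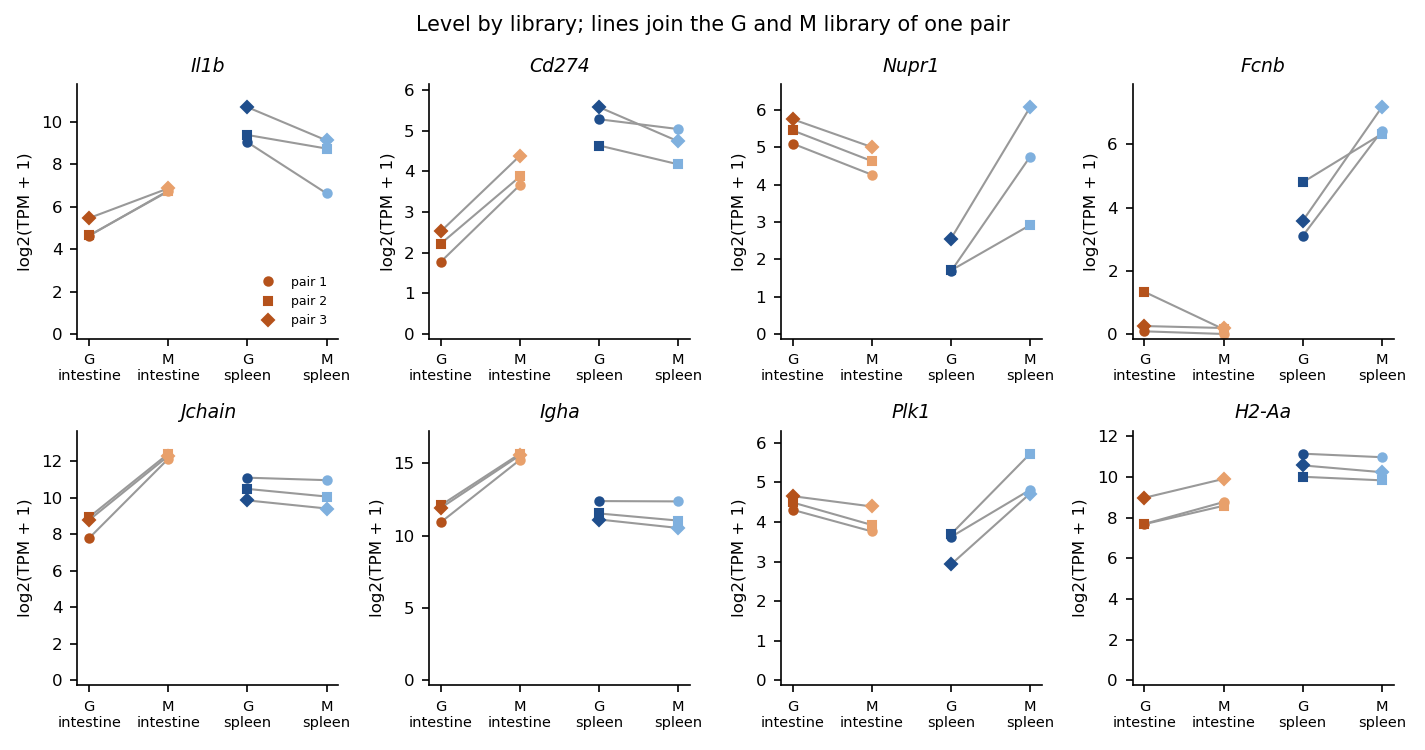
Level in log2(TPM + 1) of 8 genes in each library, with intestine left of spleen and G left of M, and grey lines joining the G and M library of a pair. Il1b, Cd274, Jchain, Igha and H2-Aa slope upward from G to M in intestine, while Nupr1, Fcnb and Plk1 slope upward from G to M in spleen.

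Plasma cell genes had the lowest median interaction of the 26 lists. Of 12 members, 11 were called lower, beside 4.83% of all genes, and none higher, with a median of -3.42 beside 0.28 for all genes. In the 6 fits that each left out a pair, 10 or 11 were called. The medians of the pair differences were -3.11 in intestine and 0.31 in spleen. Jchain, on chromosome 5 (88519809 to 88527891, minus strand), joins the subunits of polymeric IgA and IgM. It had 220, 488 and 437 TPM in the G and 4463, 5411 and 4971 TPM in the M libraries of intestine, against 2177, 1422 and 920 TPM in the G and 1982, 1066 and 677 TPM in the M libraries of spleen. The intestinal groups lay far apart, the splenic groups overlapped, and the interaction was -4.10 ± 0.25 (adjusted p = 4.38e-04).

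Igha, the constant region of IgA heavy chains, had 1955, 4415 and 3889 TPM in the G and 38901, 52029 and 48277 TPM in the M libraries of intestine, where no values overlapped. Its levels in spleen were 5378, 2969 and 2224 TPM in the G and 5294, 2111 and 1482 TPM in the M libraries, and the interaction was -4.20 ± 0.27 (adjusted p = 4.68e-04). Igkc, the kappa constant region, was at -4.11, Mzb1, a chaperone of antibody-secreting cells, at -3.58, and Tnfrsf17, the survival receptor BCMA, at -3.05. Fam214a followed the same pattern at -3.53, with 5.46, 5.92 and 7.81 TPM in the G and 57.1, 55.2 and 47.8 TPM in the M libraries of intestine. Among 218 immunoglobulin variable segments tested, 164 were called lower, beside 4.83% of all genes, and none higher, with a median of -3.39. Segments share sequence, so single ones are uncertain. The summed plasma cell RNA given above moves with these genes, and its part in the lower calls of other lists was not tested. Lower calls numbered 606 without immunoglobulin genes and the variable, diversity and joining segments of T cell receptors.

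B cell and MHC class II genes were also lower. Of 14 B cell members 9 were called lower, beside 4.83% of all genes, and none higher (median -1.22). After rescaling all 14 were called lower, beside 7.67% of all genes. The counts were 4, 5 and 5 without intestinal pair 1, intestinal pair 3 or splenic pair 3. Cd79a, a signalling chain of the B cell receptor, had 9.13, 20.3 and 32.2 TPM in the G and 54.6, 66.5 and 101 TPM in the M libraries of intestine. Its splenic libraries had 1065, 505 and 775 TPM in the G and 906, 367 and 426 TPM in the M libraries. G was below M in all intestinal pairs and above it in all splenic pairs, with an interaction of -2.43 ± 0.27 (adjusted p = 0.00268). Cd79b, the partner chain, was at -1.86 and Ighm, the IgM constant region, at -1.81.

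MHC class II genes, which present peptides to CD4 T cells, were called lower in 8 of 9 cases, beside 4.83% of all genes. None was called higher, and the median was -1.13. H2-Aa had 205, 203 and 501 TPM in the G and 433, 381 and 954 TPM in the M libraries of intestine, against 2251, 1025 and 1510 TPM in the G and 1996, 907 and 1198 TPM in the M libraries of spleen. The groups overlapped in both tissues, but every intestinal pair was between -1.07 and -0.90 and every splenic pair between 0.17 and 0.33. Its interaction was -1.20 ± 0.12 (adjusted p = 0.00225), with H2-Eb1 at -1.13, H2-Ab1 at -1.09 and the invariant chain Cd74 at -1.03. With no pairing none of the 9 was called, and without intestinal pair 1 the count was 5.

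Cell division genes moved together in the other direction. All 22 members of the cell cycle list were called higher, beside 6.24% of all genes, with a median of 1.89 and a range of 1.26 to 2.20, and 21 were called after rescaling. Without single pairs 16 to 22 were called, and with no pairing 7. The median pair difference was 0.46 in intestine and -1.46 in spleen. Plk1, a mitotic kinase on chromosome 7 (122159439 to 122169873, plus strand), had 18.8, 21.5 and 24.2 TPM in the G and 12.6, 14.2 and 20.0 TPM in the M libraries of intestine. In spleen the levels were 11.3, 11.9 and 6.61 TPM in the G and 27.1, 51.9 and 25.4 TPM in the M libraries. The splenic groups did not overlap, the intestinal ones did, and the interaction was 2.13 ± 0.23 (adjusted p = 0.00265).

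Top2a, the topoisomerase of dividing cells, had 75.0, 98.0 and 100 TPM in the G and 41.7, 57.5 and 77.2 TPM in the M libraries of intestine, against 50.7, 58.9 and 27.1 TPM in the G and 98.4, 198 and 103 TPM in the M libraries of spleen. Its interaction was 2.18 ± 0.27 (adjusted p = 0.00379), and only the splenic groups lay apart. Kif11, a spindle motor, was at 2.10, and Bub1b, a spindle checkpoint kinase, at 1.99. The 22 genes summed to 754 TPM in G and 546 TPM in M libraries of intestine, and to 541 TPM in G and 1396 TPM in M libraries of spleen. Which cells carry these transcripts was not tested.

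Promoters of 3 of these genes are shown because all listed genes were called in one direction. Mitotic promoters typically carry a CHR element, searched as TTTGAA or TTCGAA, near CCAAT boxes. On either strand of RefSeq windows (GRCm38.p6, 250 bases before to 50 after the start), 11 of the 19 listed genes with a window hold a CHR element, against 19.226% of all 32851 windows. CCAAT was in 18 of the 19, against 37.408%, and both motifs were in 11, against 7.525%. A listed gene counted if any of its windows matched, while the shares are of single windows, so the units differ. Capitals mark both motifs, with CCAAT on the reverse strand reading ATTGG. The windows are chr7:122159185-122159484 on the plus strand for Plk1, chr10:69352863-69353162 on the minus strand for Cdk1, the kinase that drives mitosis, and chr9:70421505-70421804 on the minus strand for Ccnb2, a cyclin that activates it.
Plk1: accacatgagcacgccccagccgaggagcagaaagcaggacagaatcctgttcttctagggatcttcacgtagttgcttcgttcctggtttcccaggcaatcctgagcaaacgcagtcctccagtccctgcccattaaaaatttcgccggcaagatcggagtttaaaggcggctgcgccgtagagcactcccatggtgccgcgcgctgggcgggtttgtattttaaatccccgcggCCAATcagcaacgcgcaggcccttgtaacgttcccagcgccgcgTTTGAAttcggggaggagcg
Cdk1: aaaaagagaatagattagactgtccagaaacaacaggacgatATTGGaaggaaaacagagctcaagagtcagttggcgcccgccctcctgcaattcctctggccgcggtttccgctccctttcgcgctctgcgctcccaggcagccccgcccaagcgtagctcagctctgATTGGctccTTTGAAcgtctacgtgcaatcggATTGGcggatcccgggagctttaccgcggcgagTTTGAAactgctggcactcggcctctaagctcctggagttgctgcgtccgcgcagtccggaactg
Ccnb2: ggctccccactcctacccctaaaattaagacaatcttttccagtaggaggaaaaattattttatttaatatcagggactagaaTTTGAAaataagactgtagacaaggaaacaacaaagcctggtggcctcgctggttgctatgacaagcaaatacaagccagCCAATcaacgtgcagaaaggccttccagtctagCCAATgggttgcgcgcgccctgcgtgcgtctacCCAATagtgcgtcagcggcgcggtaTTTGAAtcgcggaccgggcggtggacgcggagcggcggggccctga
A match describes letters only, and binding was not measured.

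Primary granule genes, made by granulocyte precursors, were called higher for 6 of 8 members, beside 6.24% of all genes, and lower for none (median 2.34). Higher calls numbered 5 or 6 in the fits that each left out a pair. In intestine 6 of the 8 averaged under 1 TPM in G and 7 of the 8 in M libraries, so the sign comes from spleen. Prtn3, a granule protease, was at 0.00, 1.60 and 0.32 TPM in the G and 0.12, 0.29 and 0.35 TPM in the M libraries of intestine. Spleen libraries held 1.50, 15.9 and 5.68 TPM in the G and 6.87, 112 and 36.4 TPM in the M libraries. The splenic groups overlapped, G was below M in each splenic pair, and the interaction was 2.56 ± 0.40 (adjusted p = 0.00794). Ms4a3, a marker of granulocyte and monocyte progenitors, was at 2.52 and Ctsg, the protease cathepsin G, at 1.89. Mpo, myeloperoxidase, was at 2.54 (adjusted p = 0.0238), a call lost without intestinal pair 1, 2 or 3 or splenic pair 3.

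Mature granulocyte genes were called lower for 5 of 20 members, beside 4.83% of all genes, and higher for none, and for 3 without intestinal pair 1 or 3. Their median was -0.58, and -0.36 without intestinal pair 1 and -1.07 without intestinal pair 2. Clec4e, the pattern receptor Mincle, had 0.92, 0.98 and 1.85 TPM in the G and 6.49, 5.70 and 3.62 TPM in the M libraries of intestine. In spleen it had 52.0, 180 and 219 TPM in the G and 19.2, 119 and 111 TPM in the M libraries. G was below M in intestine without overlap and above M in each splenic pair, with an interaction of -2.46 ± 0.36 (adjusted p = 0.00663). The amplifying receptor Trem1 was at -1.95 and the decoy receptor Il1r2 at -1.84.

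Genes that define neutrophils most closely were not called. Cxcr2 was at -0.46 ± 0.49 (adjusted p = 0.486) and Ly6g at 0.22 ± 0.25 (adjusted p = 0.511), and both change sign under some settings. S100a8, a calcium-binding alarmin, was at 2.49 ± 1.25 (adjusted p = 0.159). It had 11.5, 197 and 11.0 TPM in the G and 10.1, 3.48 and 4.69 TPM in the M libraries of intestine, so G library 2 alone stood high. Its splenic levels were 7221 to 38461 TPM in G and 9300 to 32700 TPM in M libraries. Secondary and tertiary granule genes gave 1 lower call among 14, beside 4.83% of all genes, at a median of 0.79. In 5 of the 6 fits that each left out a pair none was called lower, and without splenic pair 2 instead 3 were called higher (median 1.18), while without intestinal pair 2 the median was 0.35.

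Monocyte genes split. Of 20 members 4 were called higher and 2 lower (median 0.42), beside 6.24% and 4.83% of all genes. After rescaling the counts were 1 and 2, beside 1.95% and 7.67%. Higher calls numbered 1 without splenic pair 1 or any one intestinal pair and 2 without splenic pair 3, but 6 without splenic pair 2 (median 0.87), and lower calls 1 without intestinal pair 2 or 3 and 0 without intestinal pair 1. Ly6c2, the Ly6C antigen of classical monocytes, had 9.45, 25.9 and 24.6 TPM in the G and 377, 467 and 476 TPM in the M libraries of intestine. Splenic values were 160, 706 and 264 TPM in the G and 523, 738 and 1158 TPM in the M libraries. G was lower than M in all 6 pairs but by more in intestine, giving -3.21 ± 0.55 (adjusted p = 0.0108, and 0.0505 without intestinal pair 1). Reads of its close copy Ly6c1 may be split with it. The plasma cell sum was also highest in the M libraries of intestine, and which cells carry Ly6c2 was not tested. Ccr2 was at 0.46 ± 0.78 (adjusted p = 0.664), being lower in G in every pair of both tissues.

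Klf4, a transcription factor of monocytes that epithelium also makes, had 61.6, 69.6 and 56.0 TPM in the G and 71.3, 59.5 and 62.5 TPM in the M libraries of intestine. Levels in spleen were 1.64, 1.66 and 3.11 TPM in the G and 11.0, 5.39 and 20.3 TPM in the M libraries. Only the splenic groups were apart, and the interaction was 1.89 ± 0.30 (adjusted p = 0.00844). Fn1, fibronectin, had 7.49, 15.9 and 8.96 TPM in the G and 18.4, 22.7 and 14.1 TPM in the M libraries of intestine, against 5.30, 5.72 and 8.43 TPM in the G and 119, 26.6 and 343 TPM in the M libraries of spleen. G was below M in all 6 pairs and by more in spleen, with an interaction of 3.07 ± 0.73 (adjusted p = 0.0243). The chemokine Ccl9 was at 2.83. The calls of Fn1 and Ccl9 were lost on rescaling, without any one of the 3 intestinal pairs and without splenic pair 1, and that of Ccl9 also without splenic pair 3.

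Among other genes with large interactions, several calls also depended on single pairs. Tppp3, which binds tubulin, was at 3.19 and Ptpro, a receptor phosphatase, at 2.78, both with their high values in M libraries 1 and 3 of spleen (44.7 and 148 TPM for Tppp3, against 7.82 TPM in library 2). Both calls were lost on rescaling and in each fit without a pair except the one without splenic pair 2. Fam129b was at 2.67 and Ear1, an eosinophil-associated ribonuclease with close copies, at 3.12, and both calls were lost without any one of the 3 intestinal pairs. Mir27a, a very short microRNA precursor gene, had the lowest value of the genes given here, -4.61 ± 1.20 (adjusted p = 0.0301), and also lost its call without any one of the intestinal pairs. The call of Prg2, major basic protein of eosinophils, held in each fit without a pair. It had 2.03, 4.14 and 3.27 TPM in the G and 29.2, 35.4 and 51.1 TPM in the M libraries of intestine, against 46.6, 40.2 and 19.6 TPM in the G and 56.5, 59.9 and 17.6 TPM in the M libraries of spleen. Its intestinal groups lay apart, its splenic groups overlapped, and the interaction was -3.02 ± 0.26 (adjusted p = 0.00122). Which cells carry Prg2 was not tested. The 8 tested eosinophil genes gave 2 higher and 2 lower calls, beside 6.24% and 4.83% of all genes. They gave 1 in each direction without intestinal pair 1 or 2.

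Inflammatory cytokines and chemokines were called lower for 8 of 21 tested members, beside 4.83% of all genes, and higher for none. Their median was -0.77, and lower calls numbered 5 without intestinal pair 1. A further 4 of the 25 listed were not tested. Cxcl2, a neutrophil-attracting chemokine, had 6.26, 4.60 and 10.8 TPM in the G and 25.0, 14.4 and 26.5 TPM in the M libraries of intestine. In spleen it had 1.48, 1.38 and 4.00 TPM in the G and 0.42, 0.55 and 0.63 TPM in the M libraries. The groups overlapped in neither tissue and stood in opposite order, and the interaction was -2.52 ± 0.30 (adjusted p = 0.00347). Ccl4, an inflammatory CC chemokine, was at -1.84 with the same turn in every pair. Ccl22, a ligand of Ccr4, was at -1.55 and owed this to intestine, since its splenic levels were at most 1.00 TPM.

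Genes of T cell suppression and checkpoints, Cd274 among them, were called lower for 9 of 22 members, beside 4.83% of all genes, and higher for none. Their median was -0.86, beside 0.28 for all genes. Lower calls numbered 6 without intestinal pair 1, and 12 after rescaling, beside 7.67% of all genes. Ptgs2, the prostaglandin synthase COX-2, had 3.00, 3.06 and 6.58 TPM in the G and 11.6, 10.4 and 15.1 TPM in the M libraries of intestine. The splenic libraries had 1.73, 2.44 and 4.19 TPM in the G and 0.57, 1.18 and 1.32 TPM in the M libraries. Its order also reversed without overlap in either tissue, with an interaction of -2.28 ± 0.22 (adjusted p = 0.00179). Entpd1, the ectonucleotidase CD39, was at -1.98, and the costimulatory ligand Cd80 at -1.35.

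Dendritic cell genes were called lower for 5 of 13 members, beside 4.83% of all genes, and higher for none (median -0.69). Lower calls numbered 3 without intestinal pair 3 or splenic pair 1 or 3. Siglech, a receptor of plasmacytoid dendritic cells, had 0.56, 0.55 and 0.64 TPM in the G and 3.25, 1.71 and 3.56 TPM in the M libraries of intestine. In spleen the values were 11.7, 14.0 and 10.9 TPM in the G and 5.24, 4.55 and 5.74 TPM in the M libraries. Neither tissue's groups overlapped, the order was opposite, and the interaction was -2.34 ± 0.25 (adjusted p = 0.00254). Itgax, the integrin CD11c, was at -2.06 and Ccr9, a gut-homing chemokine receptor, at -1.77. Of 17 T and NK cell genes 1 was called lower, a share close to the 4.83% of all genes. It was Trbc1, a T cell receptor constant region with a close copy, at -1.51. That call was lost without intestinal pair 1 or 3, while 3 genes were called lower without intestinal pair 2. Of 15 tested macrophage genes 1 was called higher and none lower, at a median of -0.01, a share close to the 6.24% of all genes. That count was 0 without any one intestinal pair or splenic pair 1 and 2 without splenic pair 2, and 1 gene was instead called lower without intestinal pair 3 or splenic pair 1 and after rescaling.

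The medians of the 3 epithelial lists stood above that of all genes, 0.28. Of 20 epithelial members 1 was called (median 0.65), of 14 Paneth and goblet cell members 2 (median 1.06) and of 14 stem cell and Wnt target members 3 (median 0.74), all of them higher, where 6.24% of all genes were. The epithelial median was 0.19 without splenic pair 1 and 0.24 without splenic pair 2, where that of all genes was 0.29 and 0.24, and its count was 0 in 4 of the 6 fits that each left out a pair. Without splenic pair 3 the counts were 13, 12 and 3, where 911 of all 16029 genes were called higher. Without any one intestinal pair the Paneth and goblet cell count and the stem cell and Wnt count were 1 each. All genes gave 319, 390 and 538 higher calls without intestinal pair 1, 2 or 3. Epithelial RNA was low in spleen, where 9 of the 20 epithelial members averaged under 1 TPM in G and 3 in M libraries. Epcam, an adhesion molecule of epithelium, had 905, 1062 and 929 TPM in the G and 831, 855 and 810 TPM in the M libraries of intestine, and its interaction was 0.25 ± 0.38 (adjusted p = 0.625).

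Lyz1, the lysozyme of Paneth cells, had 1764, 2595 and 2771 TPM in the G and 746, 1267 and 1447 TPM in the M libraries of intestine. Spleen had 5.53, 7.79 and 10.9 TPM in the G and 12.9, 15.4 and 16.6 TPM in the M libraries. Groups did not overlap in either tissue, and the interaction was 1.92 ± 0.17 (adjusted p = 0.00132), with reads of its close copy Lyz2 possibly split with it. Ang4, a Paneth cell antimicrobial ribonuclease, was at 1.56, a call lost without intestinal pair 1, 2 or 3 or splenic pair 1. Axin2, a feedback target of Wnt signalling, had 39.2, 58.4 and 59.4 TPM in the G and 26.8, 35.3 and 43.8 TPM in the M libraries of intestine, against 1.22 to 1.39 TPM in the G and 2.28 to 3.69 TPM in the M libraries of spleen. Its interaction was 1.29 ± 0.19 (adjusted p = 0.00713). Olfm4, a secreted stem cell glycoprotein, was at 1.14, the membrane protein Tspan8 at 1.06, and Lgr5, the Wnt-potentiating receptor of crypt stem cells, at 0.88, under the minimum size. On rescaling, the calls of Axin2, Olfm4 and Tspan8 were lost, and none of the 14 stem cell and Wnt genes was called. Without any one intestinal pair the calls of Olfm4 and Tspan8 were lost, as was that of Olfm4 without splenic pair 1 and that of Tspan8 without splenic pair 2.

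Of 16 immediate early and heat shock genes, which respond quickly to signals and stress, 5 were called lower, beside 4.83% of all genes. None was called higher (median -0.12), and lower calls numbered 2 without intestinal pair 1 and 3 without splenic pair 1. The 5 calls were the immediate early genes Fos, Fosb, Junb, Ier3 and Dusp1. No heat shock member was called, and all were positive. Hspa1a was at 0.38, Hspa1b at 0.74, Hsph1 at 0.60, Dnajb1 at 0.43 and Hspb1 at 0.08. Fosb, a subunit of AP-1, had 66.9, 84.6 and 101 TPM in the G and 168, 198 and 239 TPM in the M libraries of intestine. Values in spleen were 3.40, 1.24 and 6.21 TPM in the G and 2.17, 1.22 and 3.23 TPM in the M libraries. Only the intestinal groups were apart, and the interaction was -1.68 ± 0.20 (adjusted p = 0.00353). Dusp1, a phosphatase of MAP kinases, was at -1.78 and Junb, another AP-1 subunit, at -1.12, while Dusp1 was not called without intestinal pair 1.

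The remaining lists had at most 3 calls each, beside 6.24% of all genes called higher and 4.83% lower. The stress gene Chac1, a glutathione-degrading enzyme, was at -1.23, and the call was lost without intestinal pair 1 or 2. Higher calls of the stress list numbered 1 without any one intestinal pair or splenic pair 3. Interferon response genes gave 1 lower call of 23, Oasl2 at -1.06, which lost it in each fit without a pair except the one without splenic pair 2. After rescaling they gave 10 lower calls, beside 7.67% of all genes. Mitochondrially encoded genes gave 1 lower call of 13, mt-Nd3, a subunit of complex I, at -1.02, with G above M in all 6 pairs and by more in spleen, a call lost without intestinal pair 1 or splenic pair 1 or 3. Erythroid and megakaryocyte genes gave 3 higher calls of 14, among them Slc4a1, the red cell anion exchanger, at 1.42, which was at most 1.12 TPM in the intestinal libraries. Mast cell and basophil genes gave 3 higher calls of 10 tested members and stromal and endothelial genes 1 of 11. Without intestinal pair 1 no erythroid, mast cell or stromal gene was called. Without intestinal pair 2 no mast cell gene was called higher and 2 were called lower, and no stromal gene was called. No mast cell gene was called without intestinal pair 3 or splenic pair 3. Without splenic pair 1 the erythroid list had 5 higher calls and 1 lower. After rescaling the mast cell list had 1 higher call, the erythroid list 1 in each direction and the stromal list 1 lower. Beside these, 1.95% and 7.67% of all genes were called higher and lower. None of 29 cytosolic ribosomal protein genes (median 0.65) or 18 glycolysis and hypoxia genes (median 0.35) was called in the limma fit. The ribosomal interactions were all positive, from 0.19 to 0.87, and thus under the minimum size. All but Rps20, Rps24 and Rps27 had an adjusted p under 0.05 in that fit. With no size minimum, 3705 of all 16029 genes passed as higher. After rescaling the ribosomal median was 0.24, beside -0.04 for all genes. The chart of interactions by list shows all 26 lists against the median of all genes.

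**Figure D5:**
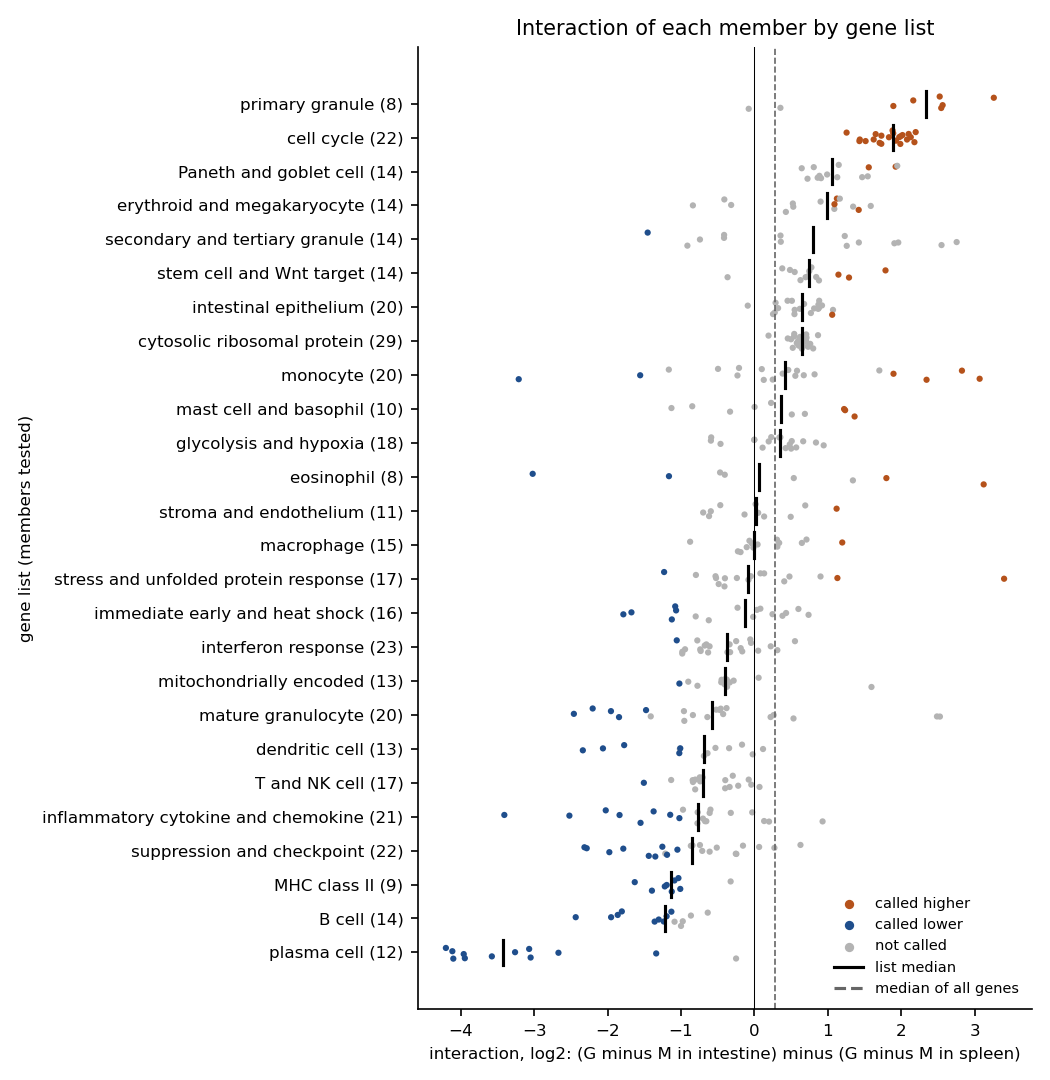
Interaction (horizontal, log2) of each tested member of 26 gene lists (rows, with the number tested), with called members in colour, the list median as a black bar and the median of all genes, 0.28, as a dashed line. All 22 cell cycle genes lie right of 1, and 11 of 12 plasma cell genes lie left of -1.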

How the data were processed

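Polyadenylated RNA of 39 mouse samples was sequenced, and 12 libraries in 4 groups of 3, grouped by their labels, were used. Per the labels' protocols, sorted cells were lysed in Trizol, and TruSeq Stranded mRNA libraries were read as 75 bp single reads on a NextSeq. Per the submitters' processing notes, bcl2fastq 2.18, STAR 2.6.1c, RSEM and mm10 were used. The sources used here give no RSEM version and no annotation. The deposited table holds the authors' gene-level TPM from RSEM for 53465 genes, and every library sums to 1000000, so the depth is unknown and values carry neither a counting interval nor a floor. Names were found for 53274 of the identifiers, and 26 symbols that had been turned into dates were restored. For a repeated symbol the entry with the highest TPM was used. Coordinates are from GENCODE vM21 on mm10, and promoters from RefSeq on GRCm38.p6.

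Genes that reached a TPM of 1 in 3 or more of the 12 libraries were analysed as log2(TPM + 1) with limma 3.58.1 in R 4.3.3. The fit had a block for each of the 6 numbered pairs, a sort term and a sort by tissue term, and a trend of variance with level, leaving 4 residual degrees of freedom. P-values are two-sided, with the Benjamini-Hochberg adjustment taken over all 16029 genes. Calls needed an adjusted p under 0.05 and an interaction of at least 1 in size. The script was tested on simulated data. G and M libraries were paired by title number within tissue, though no label says what the number stands for. As a check, deviations of equally numbered G and M libraries from their group means correlated at 0.616, 0.443 and 0.555 in intestine. In spleen these correlations were 0.595, 0.399 and 0.429. Across tissues, equally numbered libraries correlated at 0.0201, 0.135 and 0.043 for G and at 0.0408, 0.103 and 0.0438 for M sorts. G library 3 of intestine correlated at 0.0782 with a splenic G library of another number. The column headers number the 12 libraries in order of title number.

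The members, the 26 gene lists (424 genes, 411 tested) and the tests were chosen with earlier results of these data known. Lists were not tested, and are given by counts and medians. Named genes are the markers Il1b, Cd274, Nupr1 and Fcnb, the 10 highest and 10 lowest called interactions without overlap of pair differences and with a group mean TPM of at least 20 (no provisional, variable segment or pseudogene symbols), up to 4 members per list of lowest p at a group mean TPM of at least 5, and sort markers. Of these 124 genes, 67 are in the text, chosen after their values were seen. Alternatives were no replicate block, a block across tissues as well, a fit of all 39 libraries, a pseudocount of 0.1, no filter, a TPM of at least 5, rescaling by the median ratio of genes that reached a TPM of 5 in all 12 libraries, no variance trend, no size minimum, unadjusted p and each pair left out. Tables and figures used matplotlib 3.10.9, numpy 2.4.6 and pandas 2.3.3 in Python 3.11.15.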

Additional observations from a re-analysis of the deposited data

Results flagged for a closer look

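The G minus M contrast differed between intestine and spleen, by the interaction term of the limma fit, for 1001 genes in the higher and 774 in the lower direction. The 67 genes named in the text were chosen after their values in this fit were seen, so their number of calls follows largely from that choice. The same test called 61 of them, where 11.1% of all genes were called. Of the 61, 23 had a higher and 38 a lower interaction, listed here on the log2 scale by what they do. The part that the marker sums of the report have in these values was not tested.

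Among the markers, Il1b was at -3.41, Cd274 at -2.32, Nupr1 at 3.40 and Fcnb at 3.26, and the leukocyte antigen Ptprc was at -1.44. Plasma cell genes were Jchain at -4.10, Igha at -4.20, Igkc at -4.11, Tnfrsf17 at -3.05 and Mzb1 at -3.58, next to Fam214a at -3.53 and Mir27a at -4.61. In B cells and antigen presentation, Cd79a was at -2.43, Cd79b at -1.86, Ighm at -1.81, H2-Aa at -1.20, H2-Eb1 at -1.13, H2-Ab1 at -1.09 and Cd74 at -1.03.

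Primary granule genes were Prtn3 at 2.56, Mpo at 2.54, Ms4a3 at 2.52 and Ctsg at 1.89. Genes lower in G than in M sorts of spleen were Fn1 at 3.07, Ccl9 at 2.83, Tppp3 at 3.19, Ear1 at 3.12, Ptpro at 2.78, Fam129b at 2.67 and Klf4 at 1.89. Division genes were Plk1 at 2.13, Kif11 at 2.10, Top2a at 2.18 and Bub1b at 1.99. Of epithelial genes, Lyz1 was at 1.92, Ang4 at 1.56, Olfm4 at 1.14, Axin2 at 1.29 and Tspan8 at 1.06, and the red cell gene Slc4a1 was at 1.42.

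On the lower side, members of the granulocyte and monocyte lists were Ly6c2 at -3.21, Clec4e at -2.46, Trem1 at -1.95 and Il1r2 at -1.84. Prg2 of the eosinophil list was at -3.02. Chemokines were Cxcl2 at -2.52, Ccl4 at -1.84 and Ccl22 at -1.55. Regulators of T cells were Ptgs2 at -2.28, Entpd1 at -1.98 and Cd80 at -1.35, and dendritic and T cell genes were Itgax at -2.06, Siglech at -2.34, Ccr9 at -1.77 and Trbc1 at -1.51. Response genes were Fosb at -1.68, Dusp1 at -1.78, Junb at -1.12, Chac1 at -1.23 and Oasl2 at -1.06, and the mitochondrially encoded mt-Nd3 was at -1.02.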

How the results depend on the processing

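Higher calls numbered 1001 and lower calls 774 as reported. With no replicate block the counts were 207 and 170, and 39 of the 67 named genes kept their direction but lost the threshold, so many calls depend on the paired fit. The lists then had 9 plasma cell, 4 suppression, 3 cytokine, 2 dendritic cell, 1 monocyte and 1 eosinophil gene called lower, 7 cell cycle, 2 primary granule and 1 Paneth and goblet cell gene called higher, and no call in the other 17. Rescaling by the median ratio gave 312 higher and 1230 lower calls, no filter on low values gave 543 higher calls, and no size minimum gave 3705 and 1395. Over the 6 fits without a pair, higher calls ranged from 319 to 1381 and lower calls from 489 to 833. Without single libraries and with no block, they ranged from 8 to 661 and from 60 to 199. A block across tissues as well kept all 67 named genes on their side, and 2 further alternatives were chosen after seeing the data. Keeping genes at a mean TPM of at least 1 in both tissues gave 969 and 711 calls. Leaving out immunoglobulin genes and the variable, diversity and joining segments of T cell receptors gave 1007 and 606. The causes of these shifts were not tested.

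The only named genes to change sign were uncalled ones. Cxcr2 was at 0.78 with a pseudocount of 0.1, and Ccr2 at -0.41. After rescaling, Ly6g was at -0.12, Ccr2 at -0.01 and Epcam at -0.11. Without single pairs Ly6g ranged from -0.035 to 0.37 and Ccr2 from -0.31 to 1.40. Without single libraries and with no block, Cxcr2 ranged from -0.96 to 0.44, Ly6g from -0.52 to 0.93, Ccr2 from -0.37 to 1.26 and Epcam from -0.07 to 0.59. Depth is unknown, so counting error at low TPM could not be assessed.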

Other observations

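The same sorts from 2 other sources belong to no comparison above and give the G minus M difference of the 4 markers elsewhere, as log2(TPM + 1) group means with no test. Il1b averaged 732 ± 171 TPM in G and 101 ± 35.1 TPM in M sorts of BALB/c spleen, and 130 ± 21.0 TPM in G and 38.3 ± 9.72 TPM in M sorts of newborn bone marrow (SD, n = 3 each). Its differences were 2.88 and 1.76, on the side of the APCmin/+ spleen pairs. Nupr1 averaged 3.25 ± 0.0625 TPM in G and 80.4 ± 24.9 TPM in M sorts of BALB/c spleen, and 3.45 ± 0.631 TPM in G and 39.4 ± 5.12 TPM in M sorts of newborn marrow, with differences of -4.22 and -3.19.

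Fcnb, low in intestine, averaged 97.4 ± 10.5 TPM in G and 588 ± 2.98 TPM in M sorts of newborn marrow, a difference of -2.59, and its difference in BALB/c spleen was -1.32. Cd274 averaged 34.8 ± 0.836 TPM in G and 26.9 ± 4.64 TPM in M sorts of BALB/c spleen, and 3.44 ± 0.685 TPM in G and 3.86 ± 0.914 TPM in M sorts of newborn marrow, so its differences of 0.38 and -0.12 were small.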
